A study of Mus musculus with 19 samples.

Results

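Integrin and laminin genes were followed across mouse embryonic kidney cells sorted as nephron progenitors, as stromal lineage cells or as the cells left over from those sorts. The members were the gene symbols present in both deposited expression tables that name an integrin alpha chain, an integrin beta chain or a laminin chain, leaving out Itga8. They numbered 36 of 20103 gene names, with 17 integrin alpha, 8 integrin beta, 5 laminin alpha, 3 laminin beta and 3 laminin gamma genes. All mice were of the CFW strain, and RNA sequencing gave 19 libraries in 7 groups. At E16.5 (embryonic day), cells of the nephrogenic zone, the outer rim of the kidney where progenitors lie, were profiled unsorted (NZC, 3 libraries) or sorted by the transcription factor SIX2 into SIX2+ and SIX2- cells (3 libraries each), with no allele given. Also at E16.5, kidneys carrying the Six2TGC/+ allele, a Six2-driven GFP and Cre transgene, were sorted into GFP+ and GFP- cells (3 libraries each). At E14.5, kidneys carrying Foxd1Cre;Tdt were sorted into Tdt+ and Tdt- cells (2 libraries each). There the Cre recombinase is driven by the stromal gene Foxd1, and Tdt reports cells with a history of Foxd1 expression. Every negative fraction is a mixture of the remaining cell types, and the Tdt- cells include nephron progenitors. Nothing in the labels ties the libraries of a group to different animals. The p-values hence reflect only how far these libraries differ from each other, which may be technical. The E16.5 and E14.5 tables were normalised separately, so levels set side by side across them are descriptions.

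Integrins are cell surface receptors made of 1 alpha and 1 beta chain, and the pairing sets which ligand is bound: laminin, collagen, fibronectin-type RGD ligands or, on leukocytes, counter-receptors on other cells. Laminins are trimers of 1 alpha, 1 beta and 1 gamma chain that form the sheet-like core of basement membranes, which nidogens, type IV collagen and perlecan complete. In the developing kidney, nephron progenitors lie around the branching ureteric epithelium, and the laminin chains are known to change as progenitors become epithelium and as tubules, glomeruli and vessels form.

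The deposited values behaved as RPKM, read counts scaled by gene length and by library size. Differences were tested on the log2(RPKM + 1) scale, which understates the change of low genes. Six2 ran from 295 to 458 RPKM in SIX2+ against 4.43 to 46.8 in SIX2- libraries, with library 3 the highest of the SIX2- libraries, and from 312 to 348 in GFP+ against 2.7 to 16.8 in GFP- libraries. It was at 0.65 and 2.14 RPKM in Tdt+ and at 117 and 96.6 in Tdt- libraries. Foxd1 was at 205 and 102 RPKM in Tdt+ against 29.9 and 25.2 in Tdt- libraries. Estimated from the steps of low values, depth was 26000000 to 45500000 reads per E16.5 library except NZC library 2 at 3110000 reads. Tdt+ libraries had 9430000 and 8440000 reads against 30200000 and 26200000 in Tdt- libraries. Summed RPKM of 7 stromal markers was 49.6 to 56.3 in SIX2+ against 917 to 1533 in SIX2- libraries, and 50.3 to 70 in GFP+ against 1901 to 2452 in GFP- libraries. In the Tdt sort these sums overlapped, at 2171 and 1453 in Tdt+ against 1728 and 2371 in Tdt- libraries. Of the 7 markers, 2 were higher and 0 lower in Tdt+ cells. Mural sums (6 genes) overlapped too, at 185 and 196 against 155 and 251. The Tdt comparisons hence do not set stromal cells against cells free of stromal transcripts. Summed endothelial markers (8 genes) were 2.42 to 5.82 against 58.8 to 168 in the SIX2 sort and 1.75 to 7.4 against 47.5 to 90.6 in the GFP sort. Summed erythroid markers (6 genes) reached 16.2 RPKM at most in the SIX2 sort but 817 to 8435 in GFP- libraries.

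Integrin and laminin transcripts that passed the test were lower in nephron progenitors than in the remaining cells, in both sorts. In SIX2+ against SIX2- cells, 17 of the 25 members tested were lower and 0 were higher, where 15.9% of all 12798 genes tested were lower and 8.36% higher (24.2% in either direction). In GFP+ against GFP- cells, 18 of 25 were lower and 0 higher, against 17% and 15.9% of all genes (32.9% in either direction). At E14.5, 8 of 20 members tested were lower in Tdt+ than in Tdt- cells and 0 higher, against 7.21% and 1.22% of 12364 genes (8.44% in either direction). The median log2 difference over the members tested was -0.80, -0.87 and -0.69 in the 3 comparisons, and over all genes it was 0.04, 0.09 and -0.04. Fewer cells of a type and less RNA per cell cannot be told apart in such bulk libraries. The 11 members that did not reach 1 RPKM in 3 of the E16.5 libraries were not tested, and a weakly transcribed member could enter the test only through a group in which it was higher. With no filter, 1 of 36 members was called higher and 21 lower in the GFP sort, where 2108 and 2584 of 19451 genes were. Among the 14 members with a mean of at least 5 RPKM over all E16.5 libraries, 10 were lower in each sort. No share over all genes was taken at that mean. With the filter raised to 5 RPKM, 12 of 16 members were lower in each sort, where 1267 (SIX2) and 1407 (GFP) of 9646 genes were. At E14.5, 4 of 14 members with a mean of at least 5 RPKM were lower in Tdt+ cells, and 4 of 6 with a lower mean.

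**Figure D1:**
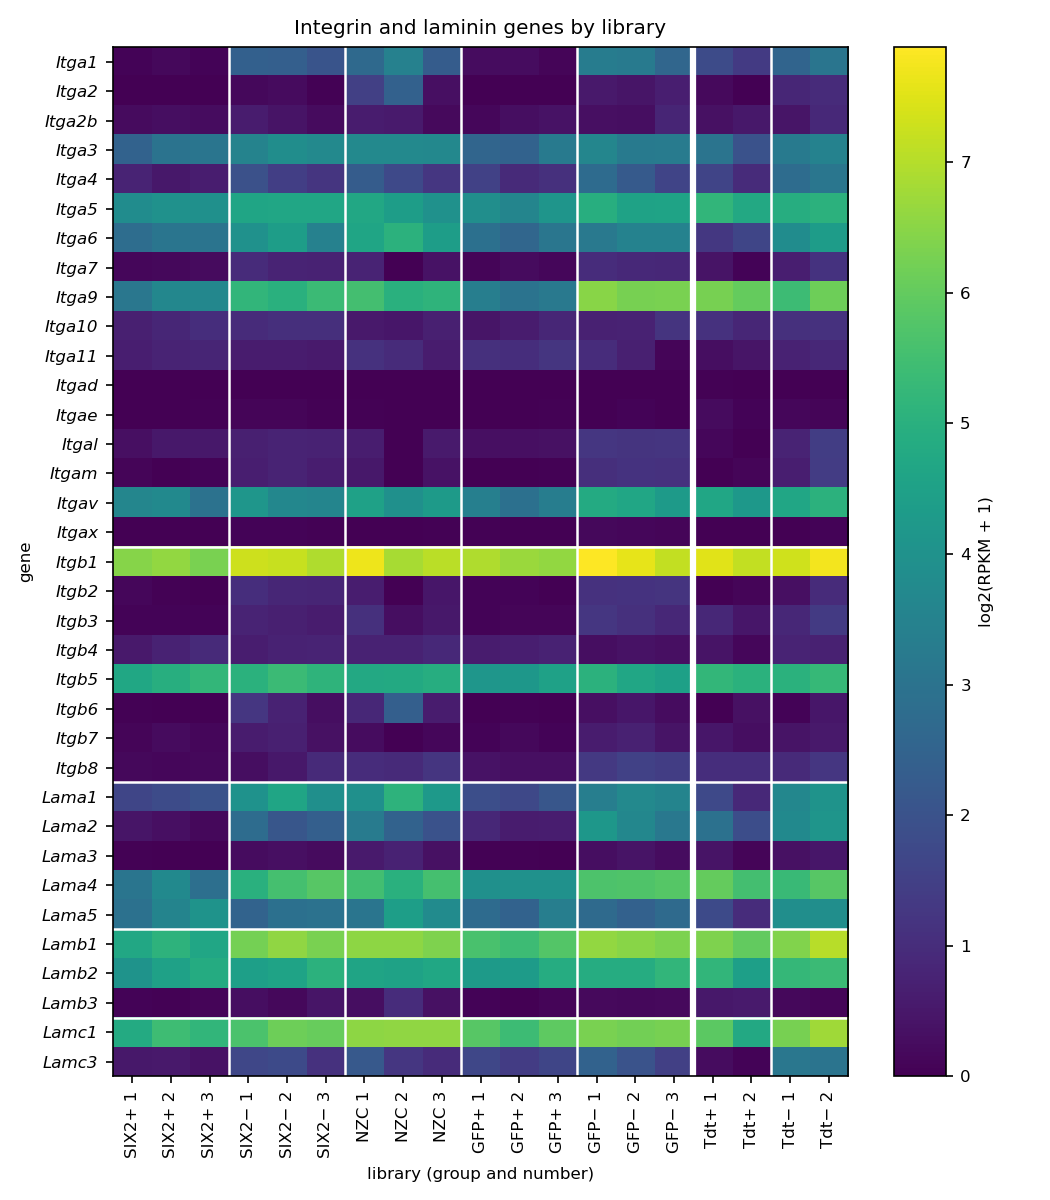
Levels of 35 members, as log2(RPKM + 1), in each of the 19 libraries (columns, by group and number) with genes in rows by chain type; the thick white line separates E16.5 from E14.5 libraries, which were normalised separately. Itgb1 is the brightest integrin row in every library, and Itga1, Lama1 and Lama2 are dark in SIX2+ and GFP+ libraries.

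Promoter sequences are shown for 2 members that were lower in all 3 comparisons (Itga1 and Itga4), for the most abundant integrin chain (Itgb1) and for the laminin alpha chain that was not lower in nephron progenitors (Lama5). Each run is the 250 bases before the RefSeq transcript start, written 5′ to 3′ on the gene's strand in build GRCm38, at chr13:115101965-115102214 (minus strand), chr2:79255176-79255425 (plus), chr8:128685404-128685653 (plus) and chr2:180225860-180226109 (minus). Capitals mark the GC box, spelled GGGCGG, also where it lies on the other strand.
Itga1: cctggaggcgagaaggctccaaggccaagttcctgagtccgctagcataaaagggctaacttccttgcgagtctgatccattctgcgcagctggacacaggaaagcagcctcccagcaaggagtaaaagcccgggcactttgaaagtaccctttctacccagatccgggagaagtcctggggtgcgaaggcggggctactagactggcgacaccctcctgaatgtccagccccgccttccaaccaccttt
Itga4: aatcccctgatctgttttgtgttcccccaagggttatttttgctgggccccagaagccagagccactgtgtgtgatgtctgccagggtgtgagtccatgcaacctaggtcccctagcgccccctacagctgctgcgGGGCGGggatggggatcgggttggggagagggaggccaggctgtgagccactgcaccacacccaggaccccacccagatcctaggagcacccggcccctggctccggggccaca
Itgb1: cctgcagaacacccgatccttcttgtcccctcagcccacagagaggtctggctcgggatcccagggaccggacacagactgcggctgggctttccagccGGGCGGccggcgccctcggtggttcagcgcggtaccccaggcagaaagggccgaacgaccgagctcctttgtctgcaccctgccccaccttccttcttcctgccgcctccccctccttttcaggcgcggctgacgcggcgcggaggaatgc
Lama5: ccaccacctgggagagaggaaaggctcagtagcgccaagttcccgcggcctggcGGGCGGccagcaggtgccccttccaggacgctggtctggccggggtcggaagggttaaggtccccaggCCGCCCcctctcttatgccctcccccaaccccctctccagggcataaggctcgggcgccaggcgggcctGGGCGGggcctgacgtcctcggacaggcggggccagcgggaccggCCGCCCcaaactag
Both strands were searched for this GC box, for the box spelled CCAAT and for the promoter element spelled TATAAA. The Itga1 window held none of these 3 motifs, the Itga4 and Itgb1 windows held 1 GC box each, and the Lama5 window held 4. No match in these windows overlapped another motif. Of the members, 22 were in the RefSeq promoter table and 17 had an entry within 200 bases of the GENCODE gene start. Over those 17, 8 windows (47.1%) held a GC box against 32.7% of all 32851 promoter entries, 2 (11.8%) held CCAAT against 33.8%, and 0 held TATAAA against 12.4%. Their median GC content was 60.8% against 52.4%. The 17 windows were limited to 1 entry per gene near the GENCODE start and the 32851 entries were not, so the 2 sets are not like for like. These matches describe the letters in the windows and say nothing of binding.

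Among laminin alpha chains, Lama5 stood apart from Lama1, Lama2 and Lama4. Lama5 encodes the chain of mature epithelial and vascular basement membranes, Lama1 that of early embryonic basement membranes, Lama2 the merosin chain of muscle and mesenchyme, and Lama4 a chain of vessels and mesenchyme. Lama1 (chr17:67697259-67822647) was at 2.13, 2.46 and 2.98 RPKM in SIX2+ libraries and at 15.2, 24 and 14.1 in SIX2- libraries. It was at 2.73, 2.29 and 3.33 RPKM in GFP+ libraries and at 9.45, 12.1 and 10.9 in GFP- libraries, so the positive and negative libraries did not overlap in either sort. The log2 differences were -2.38 ± 0.26 (SE, adjusted p = 1.10e-05) and -1.64 ± 0.26 (adjusted p = 0.000237). Lama1 was also lower in the stromal lineage, at 2.35 and 0.873 RPKM in Tdt+ against 11.6 and 15.7 in Tdt- libraries, a difference of -2.53 ± 0.34 (adjusted p = 0.00433). In each of the 3 sorts the chain was thus lower in the positive cells.

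Lama4 (chr10:38965515-39110188) was at 7.31, 12.4 and 6.42 RPKM in SIX2+ against 30.9, 46.1 and 55.5 in SIX2- libraries. GFP+ libraries had 14.7, 14.8 and 15 RPKM and GFP- libraries 49.9, 51.2 and 55. The differences of -2.23 ± 0.23 (adjusted p = 6.05e-06) and -1.74 ± 0.23 (adjusted p = 4.50e-05) came from libraries that did not overlap. In the stromal lineage Lama4 was abundant, with 64.3 and 45.3 RPKM in Tdt+ against 39.5 and 55.5 in Tdt- libraries, and these overlapped (difference 0.20 ± 0.27, adjusted p = 0.71, and -0.02 after rescaling to TPM). Lama2 (chr10:26980036-27619758) was the lowest of the tested alpha chains in nephron progenitors, at 0.126 to 0.35 RPKM in SIX2+ and 0.52 to 0.82 in GFP+ libraries. Its negative counterparts had 3.36 to 5.86 and 7.9 to 17.2 RPKM, and the differences were -2.12 ± 0.30 (adjusted p = 0.000131) and -2.96 ± 0.30 (adjusted p = 4.12e-06). Lama2 was at 6.69 and 2.63 RPKM in Tdt+ and at 12.4 and 16.2 in Tdt- libraries, a difference of -1.52 ± 0.37 (adjusted p = 0.0442). That last call was lost without Tdt- library 2 (adjusted p = 0.111), and with a pseudocount of 0.1 (0.0616), quantile normalisation (0.0599), TPM rescaling (0.0712) or no filter on low values (0.193).

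Lama5 (chr2:180176373-180225859) was at 6.72, 10.6 and 15.4 RPKM in SIX2+ libraries and at 4.69, 6.56 and 6.84 in SIX2- libraries, where the lowest SIX2+ library lay below the highest SIX2- library. GFP+ libraries had 5.8, 4.58 and 9.41 RPKM and GFP- libraries 5.62, 4.45 and 5.65. The differences were 0.71 ± 0.33 (adjusted p = 0.15) and 0.24 ± 0.33 (adjusted p = 0.619), so neither passed the test. With the replicate number as a block, Lama5 was called higher in SIX2+ cells (0.71, adjusted p = 0.00314), as it was with library weights (0.54, 0.0142), and in GFP+ cells it was called under neither. The block called 52.4% of all genes in the SIX2 sort and 53.4% in the GFP sort. Library weights called 54.9% and 57.5%, so a call gained under either setting sets a gene little apart. In the stromal lineage Lama5 was lower, at 2.38 and 1.01 RPKM in Tdt+ against 13.9 and 13.9 in Tdt- libraries (-2.51 ± 0.31, adjusted p = 0.00317, and 0.0694 with no filter on low values). Lama3, a chain of epidermal-type basement membranes, stayed at or below 0.685 RPKM in every library and was not tested.

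Since RPKM is a value per length, the alpha chains can also be set against each other within a library. Summed laminin alpha RPKM was 22.4 ± 5.1 in SIX2+ and 72.6 ± 14 in SIX2- libraries, and 24.9 ± 3.1 in GFP+ and 80.5 ± 1.6 in GFP- libraries (mean ± SD, n = 3 each). Lama5 made up 47.9 ± 12% of that sum in SIX2+ and 8.3 ± 0.16% in SIX2- libraries, and 26 ± 6.5% in GFP+ and 6.5 ± 0.8% in GFP- libraries (SD, n = 3). No library overlapped in either sort, and the exact two-sided permutation test gave p = 0.1 in both, the smallest that 3 libraries against 3 allow (adjusted p = 0.188 over the 15 shares compared). By group mean, Lama4 was the leading alpha chain in 6 of the 7 groups, with Lama5 leading in SIX2+ cells. That lead rested on SIX2+ library 3, with Lama5 at 15.4 and Lama4 at 6.42 RPKM. In SIX2+ libraries 1 and 2, Lama4 (7.31 and 12.4 RPKM) was above Lama5 (6.72 and 10.6). In Tdt+ cells Lama4 took 87.7 ± 4.4% of the sum and Lama5 2.58 ± 0.78%, against 52.8 ± 2.6% and 15.8 ± 3% in Tdt- cells (SD, n = 2). The exact test of 2 against 2 cannot go below 0.333. These shares were chosen for description after the values were seen.

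**Figure D2:**
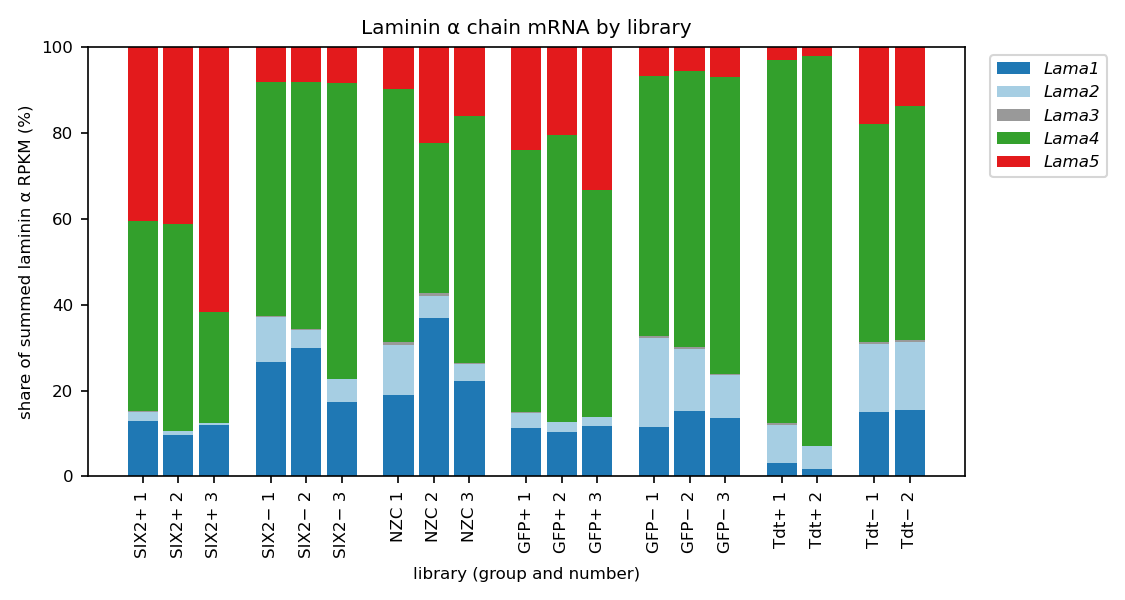
Share of summed laminin alpha RPKM (percent, vertical axis) taken by each of the 5 alpha chains in each library (bars, by group and number). The Lama5 segment covers 40.6 to 61.8% of the SIX2+ bars and 2.02 to 3.13% of the Tdt+ bars.

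In both nephron progenitor sorts the log2 differences of the beta and gamma chains were smaller than those of Lama1, Lama2 and Lama4, without a test of that contrast. Lamb1 (chr12:31265234-31329644), the widespread beta chain, was at 25.4, 33.2 and 24.1 RPKM in SIX2+ and at 74.5, 93.5 and 77.4 in SIX2- libraries, a difference of -1.54 ± 0.15 (adjusted p = 2.99e-06). In the GFP sort it was at 48.2, 41.4 and 54 against 96.9, 89 and 79.4 RPKM (-0.87 ± 0.15, adjusted p = 0.000402). Lamb2, the beta chain of glomerular and muscle basement membranes, was at 15.7 to 27.6 RPKM in SIX2+ against 20.7 to 32.1 in SIX2- libraries, which overlapped (-0.22 ± 0.21, adjusted p = 0.54). In the GFP sort its difference was -0.49 ± 0.21 (adjusted p = 0.0968), called lower with the replicate block (adjusted p = 0.00412), with library weights (0.00738) and without GFP+ library 3 (0.0368). Lamb2 made up 43.7 ± 8.3% of summed laminin beta RPKM in SIX2+ libraries and 21.0 to 31.2% on average in the other 6 groups. Lamb3 was at 1.005 RPKM in NZC library 2 and at 0.484 RPKM or less in every other library, and was not tested. It was higher in Tdt+ (0.43 and 0.484 RPKM) than in Tdt- libraries (0.126 and 0.0817), without overlap. In both progenitor sorts it was lower in the positive libraries, also without overlap.

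Lamc1 (chr1:153218922-153332786), the gamma chain of most laminins, took between 84.9 and 98.9% of summed laminin gamma RPKM on average in each group. It was at 27.4, 42.1 and 35.8 RPKM in SIX2+ and at 49.1, 69.5 and 65.6 in SIX2- libraries (-0.80 ± 0.17, adjusted p = 0.00359). In the GFP sort it was at 56, 41.7 and 60.5 against 78.3, 72.3 and 75.9 RPKM (-0.53 ± 0.17, adjusted p = 0.0323). That call was lost without any of the GFP- libraries (adjusted p = 0.0926, 0.0629 and 0.0712), without GFP+ library 2 (0.141), and after rescaling to TPM (0.0532). Tdt+ libraries had 58.5 and 25.8 RPKM and Tdt- libraries 75.2 and 108, a difference of -1.19 ± 0.38 that did not pass (adjusted p = 0.11) but did without Tdt+ library 1 (-1.76, adjusted p = 0.00161).

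Lamc3 was far lower in Tdt+ than in Tdt- cells. Lamc3 (chr2:31887291-31946539), a minor gamma chain, was at 0.196 and 0.06 RPKM in Tdt+ against 7.72 and 7.19 in Tdt- libraries, the largest difference of the members in that comparison (-2.91 ± 0.24, adjusted p = 0.000741). In SIX2+ libraries it was at 0.311 to 0.461 RPKM against 1.2 to 2.39 in SIX2- libraries (-1.04 ± 0.31, adjusted p = 0.022). The GFP sort gave 1.62 to 2.2 against 1.81 to 4.62 RPKM, which overlapped (-0.42 ± 0.31, adjusted p = 0.319). At E14.5 Lamc3 reached 1 RPKM only in Tdt- libraries and passed the filter on low values through them alone, so its call there is no support for the count. Of the 6 markers of the ureteric epithelium, 5 were tested at E16.5, and in both progenitor sorts 4 were lower and 1, Hoxb7, was higher (medians -2.57 in SIX2+ and -1.62 in GFP+ cells). In Tdt+ cells 1 of 4 tested was lower (median -0.37). Their sums were 29.6 to 37.9 RPKM in SIX2+ against 42.6 to 51.9 in SIX2- libraries, 19.5 to 22.5 in GFP+ against 22.1 to 34 in GFP- libraries and 16.3 to 29.6 in Tdt+ against 24.9 to 26.6 in Tdt- libraries. Hoxb7 alone gave 34.8, 28.8 and 36.3 RPKM of the SIX2+ sums and 19.2, 18.7 and 16.1 of the GFP+ sums, so most of each of these sums in the positive cells was that 1 gene. The part of ureteric cells in the differences was not tested.

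**Figure D3:**
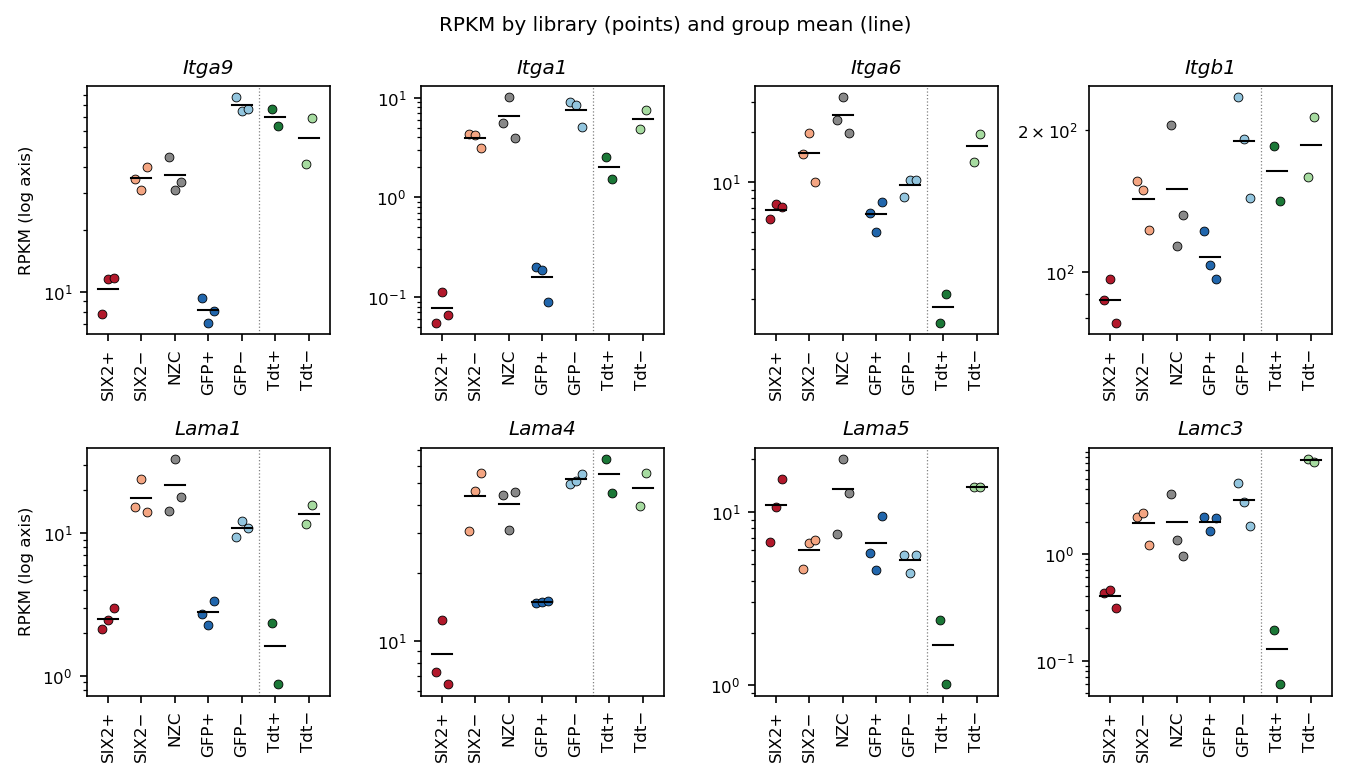
RPKM (log axis) of 8 members in each library (points, 2 or 3 per group) with the group mean as a line; the dotted line separates the E16.5 from the E14.5 groups. Itga9 is lower in SIX2+ and GFP+ libraries (7.05 to 11.6 RPKM) than in SIX2- and GFP- libraries (31.2 to 87.6), and Lama5, Lamc3 and Itga6 lie far lower in Tdt+ than in Tdt- libraries.

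Of the laminin-binding integrins, Itga3 and Itga6 were detected throughout, and Itga7, a muscle laminin receptor, was not tested (at most 1.21 RPKM). Itga6 (chr2:71745616-71858416) showed the largest integrin difference at E14.5, at 1.44 and 2.15 RPKM in Tdt+ against 13.2 and 19.5 in Tdt- libraries (-2.62 ± 0.29, adjusted p = 0.00219, and 0.0581 with no filter on low values). In the SIX2 sort it was at 6, 7.4 and 7.12 RPKM in SIX2+ against 14.8, 19.8 and 10.1 in SIX2- libraries (-0.98 ± 0.23, adjusted p = 0.00532). In the GFP sort, 6.57, 5.06 and 7.58 RPKM stood against 8.1, 10.3 and 10.3 (-0.52 ± 0.23, adjusted p = 0.0964), a difference called with the replicate block (adjusted p = 0.0164), with library weights (0.0111) and with only the GFP libraries in the fit (0.0377). Itga3 was at 4.55 to 7.42 RPKM in SIX2+ against 10.5 to 13.7 in SIX2- libraries (-0.85 ± 0.21, adjusted p = 0.00692) and at 4.55 to 8.24 in GFP+ against 8.46 to 11.3 in GFP- libraries (-0.62 ± 0.21, adjusted p = 0.0334). In the stromal lineage Itga3 was at 7.21 and 2.98 RPKM in Tdt+ against 8.4 and 10.2 in Tdt- libraries, which did not pass (-0.84 ± 0.36, adjusted p = 0.214). Itgb4, the beta partner of Itga6 in epithelial hemidesmosomes, was at 0.909 RPKM or less in every library and was not tested. Its values were higher in GFP+ (0.503 to 0.674 RPKM) than in GFP- libraries (0.234 to 0.317), without overlap, and overlapped in the SIX2 sort. In Tdt+ libraries it was lower, at 0.325 and 0.0962 against 0.705 and 0.662 RPKM.

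Among collagen receptors, Itga1 was near 0 in nephron progenitors. Itga1 (chr13:114953096-115101964), the alpha chain of a collagen IV receptor of mesenchyme and vessels, was at 0.055, 0.113 and 0.0656 RPKM in SIX2+ against 4.32, 4.21 and 3.15 in SIX2- libraries. It was at 0.2, 0.189 and 0.0882 RPKM in GFP+ against 8.93, 8.37 and 5.02 in GFP- libraries. The groups lay far apart, with differences of -2.17 ± 0.26 (adjusted p = 2.35e-05) and -2.83 ± 0.26 (adjusted p = 1.25e-06). In Tdt+ libraries Itga1 was at 2.52 and 1.53 RPKM against 4.85 and 7.42 in Tdt- libraries (-1.24 ± 0.30, adjusted p = 0.0432). Itga2, its neighbour on the same strand and also a collagen receptor, was at 0.0182 RPKM or less in every SIX2+ and GFP+ library and at 1.8, 4.43 and 0.25 in NZC libraries. Itga11, a fibrillar collagen receptor, was at 0.577 to 0.776 RPKM in SIX2+ against 0.486 to 0.521 in SIX2- libraries (0.16 ± 0.21, adjusted p = 0.659) and at 1.05 to 1.3 in GFP+ against 0.085 to 1 in GFP- libraries (0.50 ± 0.21, adjusted p = 0.083). Quantile normalisation called it higher in both sorts (0.68, adjusted p = 0.019, and 0.85, adjusted p = 0.00388), and library weights did in the GFP sort (0.37, 0.0246). Itga10, a cartilage collagen receptor, was at 1.26 RPKM or less in every library and passed in none of the 3 comparisons, although library weights called it lower in SIX2+ cells (-0.24, adjusted p = 0.0395) and quantile normalisation turned its sign in all 3. In the annotation, 33.5% of its exonic length is shared with another gene model.

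Itga9 (chr9:118606690-118901003), the alpha chain of a receptor for tenascin-C, VCAM-1 and related ligands, was lower in nephron progenitors and did not pass the test in the stromal lineage. SIX2+ libraries had 7.82, 11.6 and 11.6 RPKM and SIX2- libraries 35.3, 31.2 and 40.4, while GFP+ libraries had 9.26, 7.05 and 8.06 and GFP- libraries 87.6, 75.1 and 77.2. The differences were -1.71 ± 0.17 (adjusted p = 5.21e-06) and -3.15 ± 0.17 (adjusted p = 8.80e-09). At E14.5 Itga9 was at 76.6 and 63.3 RPKM in Tdt+ and at 41.7 and 69.6 in Tdt- libraries, which overlapped (0.36 ± 0.29, adjusted p = 0.503). Itga9 took 52.4 ± 3% of summed integrin alpha RPKM in Tdt+ libraries and 48.8 ± 2.2% in GFP- libraries, against 20.2 ± 2.8% in SIX2+ and 17.7 ± 2.3% in GFP+ libraries. In SIX2+ and GFP+ cells the leading alpha chain was Itga5 instead, with 28.2 ± 1.3% and 29.5 ± 1%. Itga4, the other receptor of VCAM-1 and fibronectin splice forms, was at 0.429 to 0.71 RPKM in SIX2+ against 1.33 to 2.89 in SIX2- libraries (-0.91 ± 0.31, adjusted p = 0.0451). It was also lower in GFP+ cells (-1.01 ± 0.31, adjusted p = 0.0229) and in Tdt+ cells (-1.65 ± 0.30, adjusted p = 0.0145). Exons of Itga4 overlap those of Cerkl on the opposite strand over 8.04% of its exonic length.

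Itgb1 (chr8:128685654-128733200), the shared beta partner of all these alpha chains, made up 73.5 to 85.7% of summed integrin beta RPKM on average in each group. It was at 87.3, 96.7 and 78 RPKM in SIX2+ against 156, 149 and 123 in SIX2- libraries (-0.70 ± 0.22, adjusted p = 0.028), and at 122, 104 and 96.5 in GFP+ against 235, 192 and 143 in GFP- libraries (-0.79 ± 0.22, adjusted p = 0.0115). Tdt+ and Tdt- libraries overlapped, at 186 and 142 against 159 and 214 RPKM (-0.18 ± 0.30, adjusted p = 0.76).

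The RGD-binding receptors are built from Itga5, the fibronectin receptor, and Itgav with Itgb1, Itgb3, Itgb5, Itgb6 or Itgb8, several of which activate latent TGF-beta. Itga5 was at 13.3 to 15 RPKM in SIX2+ against 24.1 to 24.6 in SIX2- libraries (-0.73 ± 0.18, adjusted p = 0.00894) and at 13.8, 10.9 and 16.4 in GFP+ against 30, 22.4 and 22.6 in GFP- libraries (-0.83 ± 0.18, adjusted p = 0.00332). In the Tdt sort it did not pass, at 35.8 and 26.2 against 29.4 and 32.4 RPKM (-0.01 ± 0.24, adjusted p = 0.986). Itgav was lower in GFP+ cells, with 9.63, 6.45 and 9.19 RPKM against 27, 24.2 and 18.5 (-1.36 ± 0.24, adjusted p = 0.00048). SIX2+ and SIX2- libraries overlapped for Itgav, at 6.77 to 12.5 against 11.1 to 16.7 RPKM (-0.35 ± 0.24, adjusted p = 0.337). Itgb3 was at 0.0559 to 0.0605 RPKM in SIX2+ against 0.518 to 0.733 in SIX2- libraries (-0.62 ± 0.19, adjusted p = 0.0296), and at 0.065 to 0.0887 in GFP+ against 0.832 to 1.39 in GFP- libraries (-0.97 ± 0.19, adjusted p = 0.00136). Itgb5 was the most abundant beta chain after Itgb1, at 24.8 to 36.2 RPKM in SIX2+ against 32.1 to 40 in SIX2- libraries (-0.23 ± 0.17, adjusted p = 0.405, called with library weights at 0.00474) and at 16.7 to 21.8 in GFP+ against 21.5 to 32.5 in GFP- libraries (-0.47 ± 0.17, adjusted p = 0.0484). Itgb8 was at 0.24 to 0.319 RPKM in GFP+ against 1.5 to 1.86 in GFP- libraries (-1.08 ± 0.17, adjusted p = 0.000251). In the SIX2 sort it was at 0.0988 to 0.134 against 0.22 to 0.935 RPKM (-0.42 ± 0.17, adjusted p = 0.103), and the difference was called without SIX2- library 1 (-0.56, adjusted p = 0.0499), with a pseudocount of 0.1 (-1.35, 0.0248) and with library weights (-0.35, 0.00483), and turned to 0.09 under quantile normalisation. Itgb6, an epithelial chain that was not tested, was at 0.0358 RPKM or less in every SIX2+ and GFP+ library and highest in NZC library 2 at 4.22.

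The leukocyte integrins tested were at 0.424 RPKM or less in every nephron progenitor library. Itgb2, the beta chain shared by leukocyte integrins, was at 0.00806 to 0.0894 RPKM in SIX2+ against 0.769 to 1.04 in SIX2- libraries (-0.84 ± 0.17, adjusted p = 0.00198) and at 0.0108 to 0.0657 in GFP+ against 1.17 to 1.27 in GFP- libraries (-1.08 ± 0.17, adjusted p = 0.000207). Itgam, the macrophage and neutrophil alpha chain, was lower in both sorts (-0.63 ± 0.16, adjusted p = 0.00867, and -1.09 ± 0.16, adjusted p = 0.000103). With quantile normalisation, neither Itgam (-0.11, adjusted p = 0.632) nor Itgb2 (-0.28, adjusted p = 0.147) was called in the SIX2 sort. In the annotation, 68.7% of the exonic length of Itgam is shared with an overlapping gene model on the same strand. Itgal, the lymphocyte alpha chain, was at 0.243 to 0.273 RPKM in GFP+ against 1.27 to 1.37 in GFP- libraries (-0.88 ± 0.17, adjusted p = 0.00115). Its SIX2 sort difference did not pass (-0.31 ± 0.17, adjusted p = 0.234, 0.00206 with library weights and 0.0427 with NZC library 2 left out of the fit) and turned to 0.30 under quantile normalisation. Itgal and Itgam reached 1 RPKM only in the 3 GFP- libraries, and Itgb2 only in those and in SIX2- library 1. They entered the test through groups in which they were high, so their calls, which are among the 17 and 18 lower members, are no support for those counts. Itgb3 and Itgb8 likewise reached 1 RPKM only in GFP- and NZC libraries, and Itga1 and Lama2 only in those and in SIX2- libraries. The calls of Itgb3, Itgb8, Itga1 and Lama2 are no support for those counts either. Summed leukocyte markers (9 genes) were 9.98 to 15.6 RPKM in SIX2+ against 93 to 129 in SIX2- libraries and 2.04 to 14.2 in GFP+ against 85.9 to 129 in GFP- libraries. Of these 9 genes, 8 were lower in each sort. Ptprc, Tyrobp and Csf1r were at 0 in at least 1 GFP+ library, and Ptprc and Tyrobp were at 0 in both Tdt+ libraries. Itgad, Itgae, Itgax and Itgb7 were not tested, reaching 0.664 RPKM at most. Itga2b, the platelet alpha chain, was also not tested, at 0.869 RPKM or less, where 7 megakaryocyte and platelet markers summed to 0.073 to 0.3 RPKM in SIX2+ and 7.31 to 11.8 in SIX2- libraries. The part of leukocytes and platelets in these differences was not tested.

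**Figure D4:**
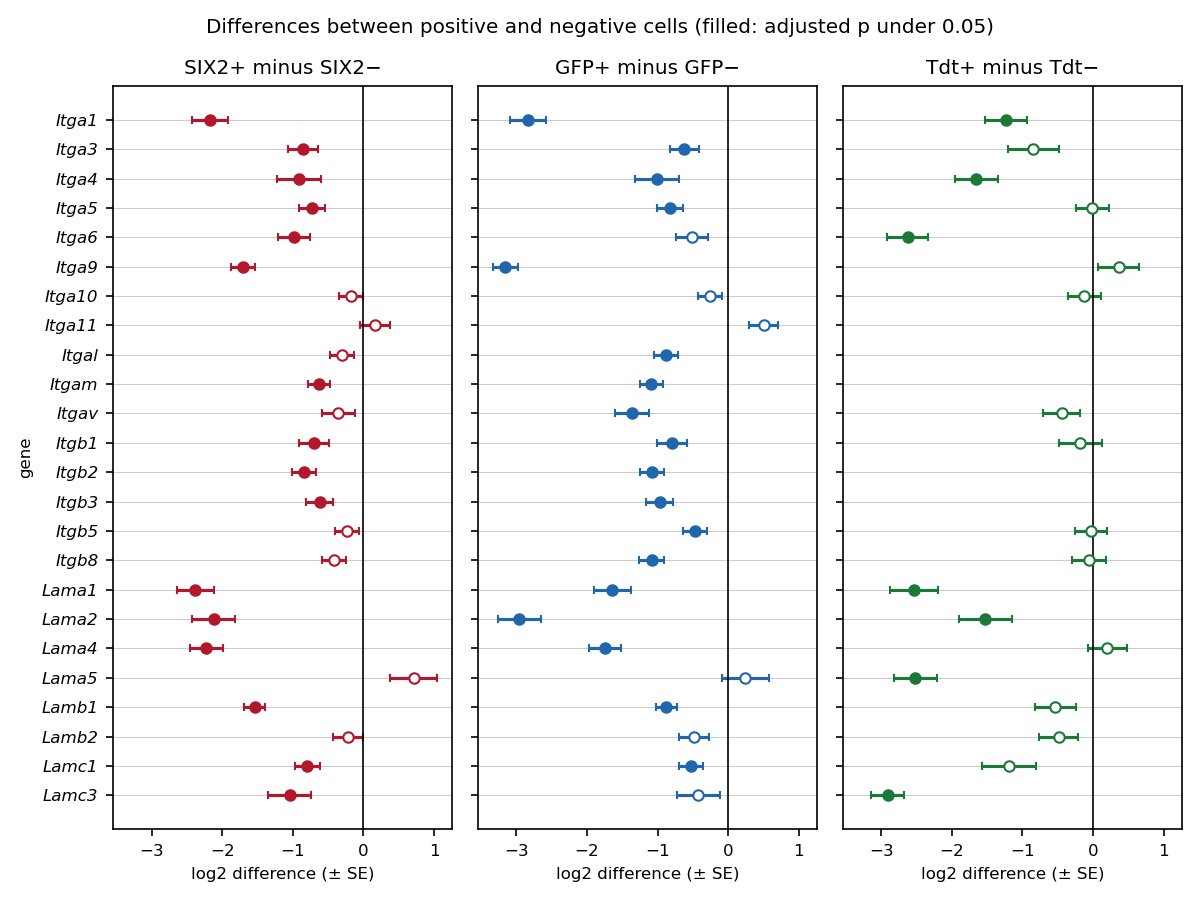
Log2 differences (± SE, on the log2(RPKM + 1) scale) of tested members in the SIX2, GFP and Tdt comparisons, positive minus negative cells; filled points have an adjusted p under 0.05. The filled points lie below 0 in each panel, and Itga9 lies at -1.71, -3.15 and 0.36.

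The positive and negative libraries did not overlap for 20 of 25 members in the SIX2 sort and for 20 of 25 in the GFP sort, against 47.3% and 53% of all genes. In the Tdt sort this held for 13 of 20, against 54.5% of all genes, which is close to the background. Beside the members lower in both progenitor sorts, 5 podocyte markers summed to 2.59 to 3.81 RPKM in SIX2+ against 22.6 to 77.5 in SIX2- libraries, and 6 mural cell markers to 5.61 to 11.3 against 177 to 262. In the GFP sort the same sums were 4.33 to 6.43 against 21.5 to 91.7 and 8.19 to 12.2 against 198 to 278. The part of these cells in the lower integrin and laminin values was not tested. In the SIX2 sort, the calls of Itga4, Itgb3 and Lamc3 were lost without SIX2- library 1 (adjusted p = 0.198, 0.107 and 0.0828), SIX2- library 2 (0.0891, 0.0809 and 0.0903), SIX2+ library 1 (0.0769, 0.0802 and 0.0556), SIX2+ library 2 (0.13, 0.08 and 0.0537) or SIX2+ library 3 (0.103, 0.0778 and 0.0688), with a pseudocount of 5 (0.131, 0.0785 and 0.0782) and under quantile normalisation (0.262, 0.94 and 0.173). Itga4 also lost its call with no filter on low values (0.0751), and Itgb1 lost its call without SIX2- library 1 or 2 (0.106 and 0.0891), without SIX2+ library 1 or 3 (0.0702 and 0.0995), under quantile normalisation (0.055) and after TPM rescaling (0.0505).

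In the GFP sort the count of lower members fell from 18 to 10 without GFP- library 1 and to 11 without GFP- library 2, where 22 members could still be tested and 24.1% and 24.5% of all genes were called in either direction, against 32.9% with all libraries. Itga3 and Itgb5 lost their calls without GFP- library 1 (adjusted p = 0.138 and 0.226), GFP- library 2 (0.0517 and 0.0846), GFP+ library 1 (0.111 and 0.145) or GFP+ library 2 (0.133 and 0.136) and after TPM rescaling (0.0558 and 0.0687). Itgb5 was also not called with a pseudocount of 5 (0.0549), no filter on low values (0.061) or only the GFP libraries in the fit (0.0594). Itga4 lost its call without GFP- library 1 or 2 (0.118 and 0.0633), without GFP+ library 2 or 3 (0.0851 and 0.0692) and under quantile normalisation (0.0573), and Itgb1 lost it without GFP- library 1 (0.0628), whose omission also called Itga11 higher (0.70, 0.0286). In the Tdt sort the count fell from 8 to 5 without Tdt- library 1 and to 3 without Tdt- library 2, with 18 members tested and 2.56% and 2.37% of all genes called. It was 11 without Tdt+ library 1, where 27.6% of all genes were called and Itga3 (adjusted p = 0.00694), Lamb2 (0.0154) and Lamc1 joined. There the call of Itga1 was lost without Tdt- library 1 or 2 (0.077 and 0.511), without Tdt+ library 2 (0.0672), with a pseudocount of 0.1 (0.0584), under quantile normalisation (0.117), after TPM rescaling (0.0652) and with no filter (0.171). Itga4 lost its call in the Tdt sort without Tdt- library 2 (0.0833) and with no filter (0.117), and Lama1 with no filter (0.0842).

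The SIX2 sort and the GFP sort used separate libraries and could be set against each other. All 25 tested members had the same sign in both, as did 85.4% of all genes tested, with Itga10, Itgal and Itgb8 turning positive in the SIX2 sort and Itga10 in the GFP sort under quantile normalisation. Both sorts called 14 members lower, namely Itga1, Itga3, Itga4, Itga5, Itga9, Itgam, Itgb1, Itgb2, Itgb3, Lama1, Lama2, Lama4, Lamb1 and Lamc1, where 13.1% of all genes tested were lower in both. These are 14 of the 17 called in the SIX2 sort and 14 of the 18 called in the GFP sort. Among the 14, Itga1, Itgam, Itgb2, Itgb3 and Lama2 reached 1 RPKM in no SIX2+ or GFP+ library. They passed the filter only through groups in which they were higher, so they are no support for that count. Tested directly, the difference between the 2 sort effects passed for 1 of 25 members, Itga9, where 0.141% of all genes passed (0.0469% positive and 0.0938% negative). Its SIX2 sort difference exceeded its GFP sort difference by 1.45 ± 0.25 (adjusted p = 0.0431), being less negative. SIX2+ and GFP+ libraries had similar Itga9 values (difference 0.30 ± 0.17, adjusted p = 0.454), whereas SIX2- libraries (31.2 to 40.4 RPKM) lay below GFP- libraries (75.1 to 87.6). Per the labels, the SIX2 sort started from nephrogenic zone cells with no allele given, and the GFP sort from developing kidneys carrying Six2TGC/+. The starting cells, the genotype and the sorting method thus cannot be told apart. Nor can the RNA extraction kit, which is not assigned to libraries. The call was lost in 10 of 12 fits that each left out 1 library (without GFP- library 1, 0.119, 2, 0.112, or 3, 0.11, GFP+ library 1, 0.0823, 2, 0.0946, or 3, 0.146, SIX2- library 1, 0.0762, or 2, 0.171, and SIX2+ library 2, 0.131, or 3, 0.143), after TPM rescaling (0.145) and with no filter (0.0624). Library weights called 11 of 25 members for the difference between sorts, against 12% of all genes.

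**Figure D5:**
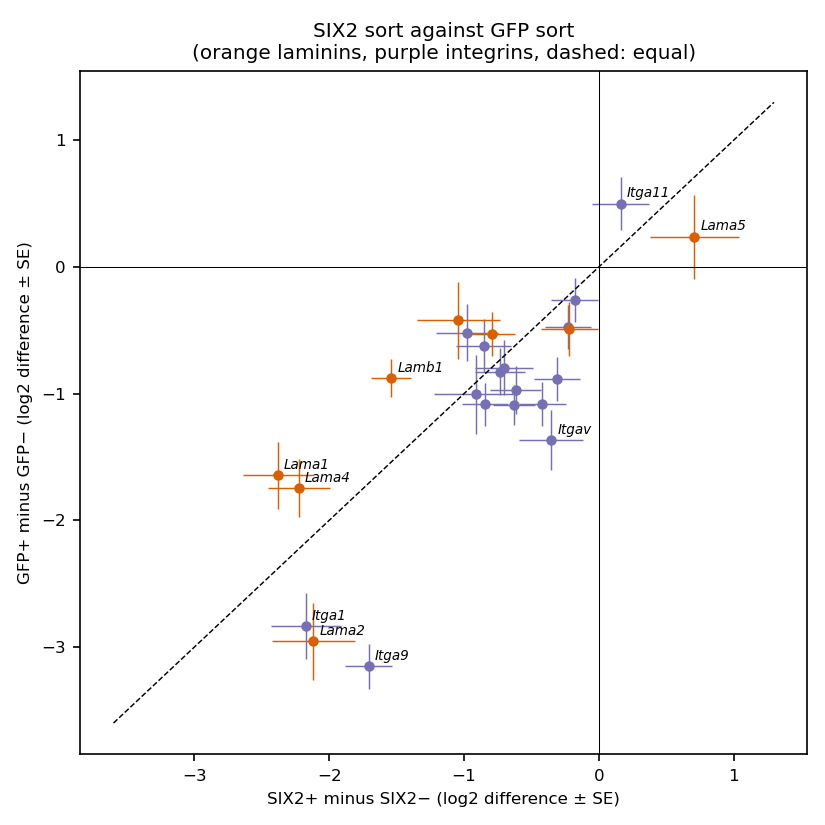
Log2 difference of 24 tested members in the GFP sort (vertical axis, ± SE) against the SIX2 sort (horizontal axis, ± SE); the dashed line marks equal differences, and names are printed for members beyond -1.2 in either sort or above 0. Itga9 lies farthest below the line (-1.71 and -3.15) and Lama5 lies at 0.71 and 0.24.

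Set directly against each other, SIX2+ and GFP+ nephron progenitors differed in 2 of 25 members, against 3.06% of all genes, with 1 higher (0.774% of all genes) and 1 lower (2.29%). Their libraries did not overlap for 9 of 25 members, against 26.9% of all genes. Lamb1 was lower in SIX2+ cells, at 24.1 to 33.2 RPKM against 41.4 to 54 in GFP+ cells (-0.78 ± 0.15, adjusted p = 0.00966), and Itgb5 was higher, at 24.8 to 36.2 against 16.7 to 21.8 RPKM (0.68 ± 0.17, adjusted p = 0.0484). Lamc3 showed the largest difference, at 0.311 to 0.461 against 1.62 to 2.2 RPKM with no overlap, and did not pass (-1.09 ± 0.31, adjusted p = 0.0763), though it did with a pseudocount of 0.1 (0.0235), after TPM rescaling (0.0459), with library weights (0.00153), with only those libraries in the fit (0.00154) and with NZC library 2 left out (0.0436). Lama4 (-0.75 ± 0.23, adjusted p = 0.108) passed without SIX2+ library 2 (0.0352) and with NZC library 2 left out (0.0481), and Lamc1 (-0.58 ± 0.17, adjusted p = 0.103) without GFP+ library 2 (0.0372). The Lamb1 call was lost without GFP+ library 1 (0.0578) or 3 (0.053) and without SIX2+ library 1 (0.0546) or 3 (0.0533). The Itgb5 call was lost without GFP+ library 1 (0.234), 2 (0.106) or 3 (0.0517), without SIX2+ library 2 (0.133) or 3 (0.207), with a pseudocount of 5 (0.0523), no filter (0.0675), quantile normalisation (0.0737) and TPM rescaling (0.237).

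Unsorted nephrogenic zone cells were set against their sorted fractions. Every NZC library exceeded every SIX2+ and SIX2- library for 2 of the 25 tested members, Itgb8 and Lamc1, where 6.49% of all genes did so, close to the members' share. Lamc1 was at 92.5, 94.5 and 94.3 RPKM in NZC libraries and Itgb8 at 1.01, 0.936 and 1.31. For Itgb8 the value of NZC library 2 was nearly equal to the 0.935 RPKM of SIX2- library 3. Among untested members the same held for Itga2 and for Lama3, at 0.285 to 0.685 RPKM against 0.254 at most in the sorted libraries. NZC library 2, the shallow one, had the highest Lama1 (33.2 RPKM), Lama5 (20.2) and Itga6 (32.2) values of the 15 E16.5 libraries, beside the highest sum of 5 tubule markers (83.2 RPKM against 26.6 and 16.2 in NZC libraries 1 and 3). Whether tubule cells account for these values was not tested. Without NZC library 1 the count was 3, without library 2 it was 3 and without library 3 it was 5.

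Laminin's partners in the basement membrane form a list of 14 genes. Of these 14, 8 were lower and 1 higher in SIX2+ cells, 5 were lower and 2 higher in GFP+ cells, and of 12 tested at E14.5, 7 were lower and 0 higher in Tdt+ cells. Of all genes tested, 15.9% were lower and 8.36% higher in SIX2+ cells, 17% lower and 15.9% higher in GFP+ cells, and 7.21% lower and 1.22% higher in Tdt+ cells, so the 1 and 2 higher genes lie near the background. Their median differences were -0.60, -0.45 and -1.43. Nid1, which links laminin to type IV collagen, was at 3.67 to 5.07 RPKM in SIX2+ against 58 to 81.1 in SIX2- libraries (-3.66 ± 0.26, adjusted p = 1.55e-07) and at 4.91 to 6.29 in GFP+ against 103 to 156 in GFP- libraries (-4.24 ± 0.26, adjusted p = 2.71e-08). Nid2 was lower in SIX2+ cells (-2.04 ± 0.34, adjusted p = 0.000441), and the type IV collagen chains Col4a4 and Col4a3 were lower in SIX2+ cells (-1.58 and -1.03) and in GFP+ cells (-2.79 and -1.54). Col4a4 and Col4a3 reached 1 RPKM in no SIX2+ or GFP+ library and passed the filter only through other groups. Their calls are no support for the counts of lower genes. Bcam, a laminin alpha-5 receptor on epithelia and red cells, rose in GFP+ cells, at 87 to 120 against 31.5 to 35.1 RPKM (1.55 ± 0.15, adjusted p = 2.21e-06). It was the 1 gene of the list that was higher in SIX2+ cells (0.54 ± 0.15, adjusted p = 0.0151), and Col18a1 was the other higher in GFP+ cells (0.66 ± 0.23, adjusted p = 0.0417), both named after their values were seen. In Tdt+ cells Bcam was at 9.81 and 10.6 against 66.8 and 65.5 RPKM (-2.59 ± 0.21, adjusted p = 0.000741). There Col18a1, a collagen with a basement membrane heparan sulphate chain, was at 4.64 and 2.7 against 71.7 and 79 RPKM (-4.06 ± 0.27, adjusted p = 0.000414), and Col4a1 and Col4a2, the main type IV collagen chains, differed by -2.61 and -2.45.

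Among integrin adaptors and signalling genes, 10 of 19 tested were lower in SIX2+ cells and 11 of 19 in GFP+ cells, with 0 higher, against 15.9% and 17% of all genes lower. In Tdt+ cells 1 of 17 was lower, near the 7.21% of all genes. The median differences were -0.71, -0.86 and -0.07. The tensins Tns3 and Tns1, which tie integrin tails to actin, led in both sorts (-1.74 and -1.53 in SIX2+ cells, -1.92 and -1.91 in GFP+ cells). They were followed by Fermt2 (-1.25) and Fermt3 (-1.13), the kindlins that activate integrins, in SIX2+ cells, and by Vcl (-1.62), which encodes vinculin, and Fermt2 (-1.45) in GFP+ cells. Fermt3 reached 1 RPKM in no SIX2+ or GFP+ library and passed the filter only through other groups, so it is no support for the counts. The gene lower in Tdt+ cells was Parvb, a parvin of the ILK complex, at 0.569 and 0.224 against 6.13 and 4.38 RPKM (-2.16 ± 0.27, adjusted p = 0.00341). Parvb passed the filter through Tdt- libraries alone, so its call is no support for a count.

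Other integrin ligands had the lowest median of the 3 gene lists in both nephron progenitor sorts. Of 14 tested, 10 were lower and 1 higher in SIX2+ cells (median -2.44), and 10 were lower and 2 higher in GFP+ cells (median -2.13). Some genes of the list, among them Vcam1, Icam2 and Cdh1, reached 1 RPKM in no SIX2+ or GFP+ library. They passed the filter only through other groups, so they are no support for the counts of lower genes. Over all genes 15.9% were lower and 8.36% higher in SIX2+ cells, and 17% and 15.9% in GFP+ cells, so the 1 and 2 higher genes lie near the background. Of 12 tested at E14.5, 3 were lower in Tdt+ cells (median -0.62), against 7.21% of all genes. Among these were Icam2 and Cdh1, which reached 1 RPKM only in Tdt- libraries and so are no support for that count. Postn, encoding periostin, was at 0.728 to 0.915 RPKM in SIX2+ against 53.3 to 104 in SIX2- libraries (-5.46 ± 0.36, adjusted p = 6.45e-08) and at 0.593 to 1.03 in GFP+ against 116 to 124 in GFP- libraries (-6.04 ± 0.36, adjusted p = 1.65e-08). Vcam1, a ligand of the receptors that hold Itga4 and Itga9, differed by -4.05 and -4.52, Fn1, encoding fibronectin, by -3.73 and -4.20, and Emilin1 by -3.63 and -4.16 in SIX2+ and GFP+ cells. Tnc, encoding tenascin-C, rose instead, at 28.1 to 37.8 against 10.3 to 17.6 RPKM in the SIX2 sort (1.22 ± 0.24, adjusted p = 0.00188) and at 39 to 67.7 against 22.4 to 30.6 in the GFP sort (0.98 ± 0.24, adjusted p = 0.00652), and was named, as was Vtn, after its values were seen. Vtn, encoding vitronectin, was higher in GFP+ cells (1.03 ± 0.19, adjusted p = 0.000638). The 3 lower in Tdt+ cells were Icam2 (-2.52), a leukocyte integrin ligand of endothelium, Thbs1 (-1.98), encoding thrombospondin, and Cdh1 (-1.96), encoding E-cadherin. Beside them, summed endothelial markers were 22.2 and 29.9 RPKM in Tdt+ against 85 and 113 in Tdt- libraries, and the part of endothelium was not tested.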

How the data were processed

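Libraries were made with a stranded mRNA kit from Kapa after RNA extraction with RecoverAll or RNeasy Micro kits, per the labels' protocols, which do not say which kit served which library. TopHat2, Partek and the build mm10 are named without roles, per the submitters' processing notes; no source used here gives the annotation or says whether counting used strand. The values the authors deposited in 1 table per stage, titled TPM, behave as RPKM (reads scaled by gene length and library size) and were treated so. Their column sums varied by 8.01% (E16.5) and 13.8% (E14.5), but by 2.70% and 2.94% after multiplying by gene length. The 2 tables were normalised separately, so no test crosses them.

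Genes reaching 1 RPKM in 3 (E16.5) or 2 (E14.5) libraries were tested on log2(RPKM + 1) with limma 3.58.1 (R 4.3.3, trended eBayes, two-sided, Benjamini-Hochberg over all genes tested, threshold 0.05), after a check on simulated data. The 15 E16.5 libraries shared 1 fit. Duplicate lines were summed, and 27 names per table turned into dates were left out. Names not among the members follow a rule: up to 4 genes called per list and comparison, by size, or the 1 largest where none was called. The members, lists and shown sequences were chosen with earlier results of these data known. Alternatives were other pseudocounts (0.1, 5), filters (none, 5 RPKM), quantile normalisation, TPM rescaling, library weights, the groups compared alone, the replicate block, NZC library 2 left out, and each library left out in turn.

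Same-numbered libraries deviated together: r across genes was 0.641, 0.279 and 0.676 in the SIX2 sort and 0.454, 0.445 and 0.389 in the GFP sort. Those numbers were taken as pairs only in the replicate block, an alternative. The main fits had no block, so their p-values and counts do not use this pairing. Positions are from GENCODE M21 (GRCm38), promoters from RefSeq (GRCm38.p6). The values of 1 member are not reported here; it is included in counts and sums.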

Additional observations from a re-analysis of the deposited data

Results flagged for a closer look

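The Itga9 difference between SIX2+ and SIX2- cells was less negative than that between GFP+ and GFP- cells (-1.71 against -3.15). The gap was 1.45 on the log2 scale (adjusted p = 0.0431, limma), a test of the difference between the 2 sorts itself. The call held in only 2 of 12 fits that each left out 1 library. It was lost after TPM rescaling (adjusted p = 0.145) and with no filter on low values (0.0624). In each sort, Itga9 was lower in every positive library than in every negative library. These are the values that gave the contrast, so they are no further support for it.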

How the results depend on the processing

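Of 1895 alternative values for single members, 1747 kept their side of the threshold, 96 lost the call, 52 gained it and 0 of the called values reversed. Values called in neither fit were counted as kept whatever their sign, and some of them changed sign. Members called in every alternative in which they were tested numbered 11 in the SIX2 sort, 13 in the GFP sort and 2 in the Tdt sort. Leaving out 1 library at a time gave 13 to 17 calls in the SIX2 sort, 11 to 18 in the GFP sort, 3 to 11 in the Tdt sort, 0 to 2 between SIX2+ and GFP+ cells, 0 to 1 for the difference between sorts (over all genes 17.7 to 21.9%, 24.1 to 28.1%, 2.37 to 27.6%, 0.877 to 3.55% and 0.00783 to 0.196% were called) and 3 to 5 members with NZC above both fractions (chosen after seeing the data). With no filter on low values the Tdt sort gave 2 calls (1.21% of all genes), SIX2+ against GFP+ 1 (2.04%) and the difference between sorts 0 (0.0566%). SIX2+ against GFP+ gave 1 call with a pseudocount of 5 (3.13% of all genes), 1 under quantile normalisation (2.61%), 6 with library weights (24.1%, near the members' share) and 4 with NZC library 2 left out (7.69%). The difference between sorts gave 0 calls after TPM rescaling (0.0636% of all genes) and 11 with library weights (12%). Library weights called 21 members lower and 1 higher in the SIX2 sort and in the GFP sort, where 54.9% and 57.5% of all genes were called. Over all genes, the SIX2 sort called 1070 higher and 2031 lower as deposited, 1572 and 1572 under quantile normalisation and 3350 and 2953 with the replicate block; the GFP sort called 2033 and 2176 as deposited and 1392 and 2528 after TPM rescaling; the Tdt sort called 151 and 892 as deposited, 240 and 485 under quantile normalisation and 8 and 221 with no filter. TPM rescaling moved the median of all genes from -0.04 to -0.29 in the Tdt sort; the 8 lower members there lay between -1.24 and -2.91 as deposited. The cause of these changes was not tested.

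The replicate block gave 15 calls in the SIX2 sort, 20 in the GFP sort, 10 in the Tdt sort (Itga3 and Lamc1 joined), 6 between SIX2+ and GFP+ cells and 2 for the difference between sorts, where it called 52.4%, 53.4%, 18.7%, 13.5% and 2.97% of all genes. It changed 1 call in the SIX2 sort and 3 in the GFP sort among the 19 and 23 members it could test there. SIX2+ and GFP+ libraries (r = 0.398, -0.0176 and 0.584) and the Tdt libraries (0.399 and 0.399) share only a number. Precision is limited by 3 or 2 libraries a group, and at the depth of NZC library 2 members listed at 0 may lie below 1 read.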
